A study of Mus musculus with 6 samples.

Results

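The mouse collagen genes were compared between primed and naive iPSCs, induced pluripotent stem cells made by reprogramming fibroblasts. A collagen gene was any gene whose single symbol in the platform annotation read Col, a number, a and a number, which gave 46 probe sets and 44 genes out of the 19938 genes measured. The brightest probe set stood for each gene. By class there were 11 fibrillar collagens, 6 basement membrane collagens (type IV) and 27 other collagens.

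Total RNA was hybridised to 6 Affymetrix mouse gene arrays, 3 from primed and 3 from naive cultures, each called a biological replicate. Primed cells grew in medium conditioned by mouse embryonic fibroblasts (MEFs) with 8 ng/ml basic FGF, on feeder cells or Matrigel, a basement membrane extract. Naive cells grew in medium with 15% fetal bovine serum and leukaemia inhibitory factor at 1000 U/ml. The titles give adult dermal fibroblasts as the origin of the primed lines and MEFs as that of the naive lines, whereas the source name gives MEFs for both. If the titles hold, culture state and line of origin cannot be told apart. The labels name no strain, sex or number of lines, and do not say which cultures grew on feeders. Since they do not state what was repeated, p-values here cover the spread among these cultures, which may be technical, and 3 arrays a group limit the precision.

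Collagens are secreted proteins in which several chains wind into a helix built on repeats with glycine at every turn. Fibrillar types form the cables of skin, bone and tendon, type IV forms the sheet of basement membranes, and the other types link, cap or anchor these structures. Fibroblasts are a main source of type I collagen, while cells of the early embryo lay down type IV collagen in their first basement membranes. Each chain is hydroxylated and folded in the endoplasmic reticulum, trimmed at its ends and cross-linked outside the cell.

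Collagen transcripts differed little between the states, and where they differed they were mostly lower in primed cells. At an adjusted p under 0.05 in limma, 10 of the 44 collagen genes were lower in primed cells and 2 were higher, while 32 did not pass. The share past the threshold was 27.3% of collagen genes, against 44.5% of all genes tested. The share that was lower in primed cells was 22.7% of collagen genes and 22.7% of all genes, so the falls were as frequent as elsewhere. The share that was higher was 4.55% of collagen genes, against 21.8% of all genes. With array medians centred the split over all genes was 3439 higher and 6325 lower in primed cells, against 4347 and 4529 as deposited. Col1a1 alone differed by at least 0.5 on the log2 scale, as 13.9% of all genes did. The median difference (primed minus naive, log2) was -0.045 over the collagen genes and -0.0015 over all genes, with a median size of 0.071 and 0.14. Primed and naive array values were fully separate for 18 collagen genes (40.9%), against 52.9% of all genes. In bulk RNA, fewer cells of a type and less RNA per cell cannot be told apart.

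**Figure D1:**
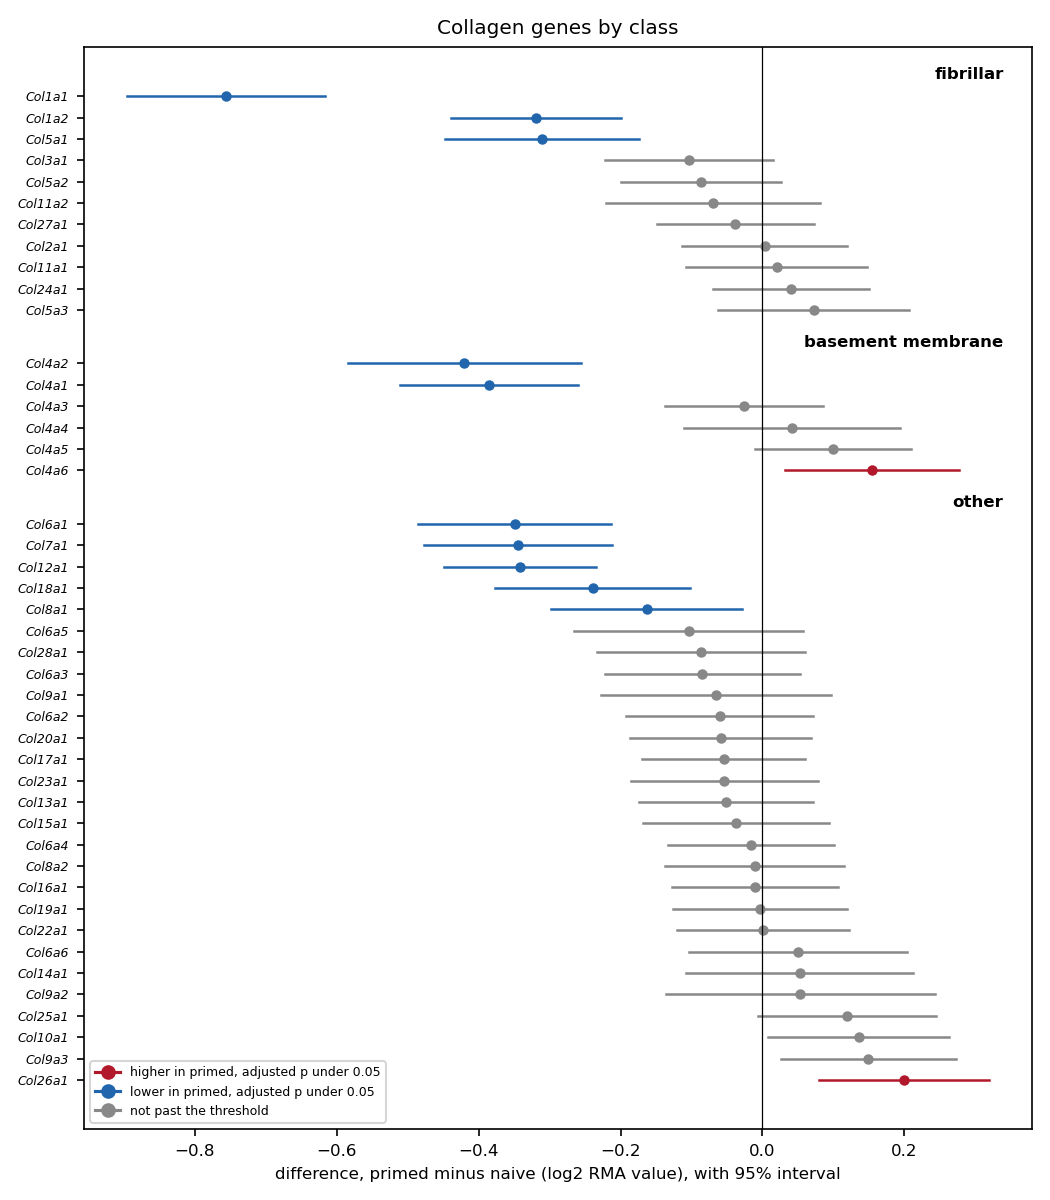
Difference of each of the 44 collagen genes (primed minus naive, log2 RMA value) with its 95% interval from limma, grouped by class. Blue points are lower and red points higher in primed cells at an adjusted p under 0.05, and grey points did not pass. Col1a1 stands apart at -0.76, and the other differences lie between -0.42 and 0.20.

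The mean over the collagen genes was lower than over all genes. It was 7.92 to 8.00 on primed and 8.00 to 8.07 on naive arrays, against 8.38 to 8.40 and 8.39 over all genes. Background was read on each array from 1190 olfactory and vomeronasal receptor genes, whose 95th percentile lay between 6.96 and 7.03 and whose 99th percentile lay between 7.72 and 7.91. All arrays of both groups lay under the 95th percentile for 1 collagen gene, Col10a1, against 5365 of all 19938 genes. They lay under the 99th percentile for 15 of the 44, against 7847 of all genes. A gene that stays within such background cannot be read as equally expressed. Where 1 group lies under a percentile, a fold written as at least N counts that group at the percentile of each array. Among the 29 collagen genes above the 99th percentile in a group, 1 was higher and 9 were lower in primed cells (34.5% past the threshold), against 62.4% of the 12091 genes of that kind.

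**Figure D2:**
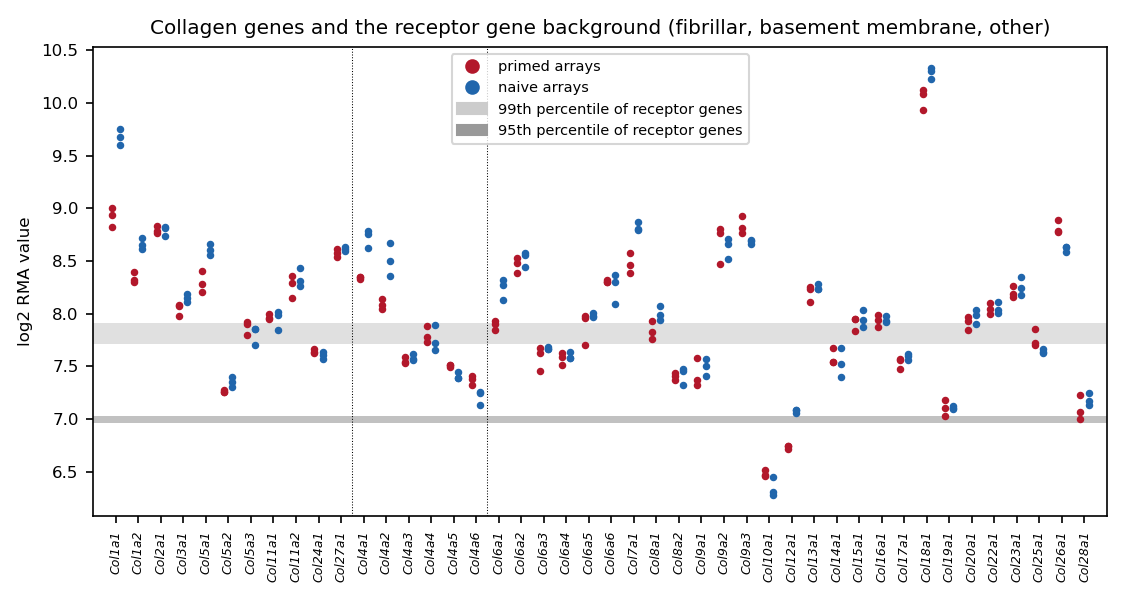
Value of every collagen gene on each array (log2 RMA value), primed in red and naive in blue, ordered as fibrillar, basement membrane and other collagens between the dotted lines. Grey bands span the 95th and 99th percentiles of receptor genes over the 6 arrays. Col10a1 lies under both bands, and Col18a1 and Col1a1 lie above both in either state.

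Among the 11 fibrillar collagens, 3 were lower in primed cells (27.3%, against 22.7% of all genes) and 0 were higher (against 21.8%) in limma. The other 8 did not pass. At an unadjusted p under 0.05, 0 of the 11 were higher, against 4847 of all 19938 genes. The median difference of the fibrillar collagens was -0.070. Col1a1, the main chain of type I collagen, had log2 values of 8.82, 9.00 and 8.93 on primed arrays, against 9.60, 9.75 and 9.67 on naive arrays. The groups were far apart, with every primed array below every naive one. Its mean was 8.92 ± 0.09 in primed and 9.67 ± 0.08 in naive cells (SD, n = 3), a difference of -0.76 (SE 0.06, limma adjusted p = 1.9e-06). On the linear scale the primed level was 0.592 of the naive level.

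Col1a2 encodes the partner chain of type I collagen and had 8.30, 8.32 and 8.40 on primed arrays, against 8.72, 8.61 and 8.65 on naive arrays. It was also lower on every primed array, by a smaller margin of -0.32 (SE 0.05, limma adjusted p = 0.000492). Col5a1, a chain of the type V collagen that starts fibrils, had 8.20, 8.28 and 8.40 on primed arrays, against 8.60, 8.66 and 8.56 on naive arrays. Its groups did not overlap and differed by -0.31 (SE 0.06, limma adjusted p = 0.00157).

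The other type V chains and the type III chain did not pass as deposited. Col3a1, which forms fibrils with type I collagen in skin and vessels, had 7.98, 8.08 and 8.07 on primed arrays, against 8.15, 8.19 and 8.11 on naive arrays. The difference was -0.10 (95% interval -0.22 to 0.014), with a limma adjusted p = 0.147. The call of Col3a1 depended on the scaling, with an adjusted p = 0.0236 with array medians centred and 0.0286 after quantile normalization. Col5a2 had 7.25, 7.28 and 7.26 on primed arrays, against 7.30, 7.40 and 7.35 on naive arrays, all under the 99th percentile of receptor genes. It differed by -0.086 (limma adjusted p = 0.209, or 0.0266 with array medians centred). The remaining 6 fibrillar genes, Col2a1, Col5a3, Col11a1, Col11a2, Col24a1 and Col27a1, had differences between -0.070 and 0.072. Col2a1, the main collagen of cartilage, was at 8.79 ± 0.04 in primed and 8.79 ± 0.05 in naive cells (SD, n = 3).

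The stretches upstream of Col1a2 and Col5a1 are shown because these fibrillar chains fell by like amounts. Both are 250 bases before the annotated start in RefSeq, build GRCm38.p6, plus strand, with capitals for CCAAT or GGGCGG read on either strand (ATTGG or CCGCCC). Col1a2 lies at chr6:4505368-4505617 and Col5a1 at chr2:27886175-27886424.
Col1a2: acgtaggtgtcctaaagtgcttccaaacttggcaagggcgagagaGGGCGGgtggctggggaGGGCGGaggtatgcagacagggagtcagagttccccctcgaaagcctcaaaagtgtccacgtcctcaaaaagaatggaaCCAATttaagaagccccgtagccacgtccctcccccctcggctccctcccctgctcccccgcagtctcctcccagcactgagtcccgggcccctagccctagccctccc
Col5a1: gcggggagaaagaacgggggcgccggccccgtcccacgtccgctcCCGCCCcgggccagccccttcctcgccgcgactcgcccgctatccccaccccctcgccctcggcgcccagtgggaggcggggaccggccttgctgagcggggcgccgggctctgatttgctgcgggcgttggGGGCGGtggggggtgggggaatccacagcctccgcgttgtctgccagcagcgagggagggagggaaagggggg
Each stretch holds 2 copies of GGGCGG, the core of a GC box, and Col1a2 holds 1 CCAAT box as well. Of the 44 collagen genes, 35 had a promoter in the RefSeq table, with 38 windows in all, each from 250 bases before to 50 bases after the start. Col1a1 was not among them, so its promoter is not shown. GGGCGG stood in 23 of these windows (60.5%), against 35.7% of the 32851 windows in the table. CCAAT stood in 34.2% of collagen windows, against 37.4% of all windows, and TATAAA on either strand in 13.2%, against 13.6%. GGGCGG also stood in the windows of Col4a6, which was higher in primed cells, and of Col6a2 and Col11a1, which did not pass. The window of Col6a1, which was lower, held none. These motifs can share letters with each other, each was counted by itself, and the shares are a description with no test. Any link of these motifs to the differences was not tested.

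Of the 6 type IV chains of the basement membrane class, 2 were lower in primed cells (33.3%, against 22.7% of all genes). In addition 1 was higher (16.7%, against 21.8%) and 3 did not pass. Col4a1 and Col4a2, which together form the common type IV collagen, were lower in primed cells. Col4a1 had 8.35, 8.35 and 8.33 on primed arrays, against 8.76, 8.79 and 8.63 on naive arrays. The primed arrays lay close together and under all naive arrays, with a difference of -0.39 (SE 0.06, limma adjusted p = 0.000175). Col4a2 had 8.08, 8.05 and 8.14 on primed arrays, against 8.50, 8.67 and 8.36 on naive arrays. Again no arrays overlapped, and the difference was -0.42 (SE 0.07, limma adjusted p = 0.000657), or a primed level 0.747 of the naive level.

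Col4a1 and Col4a2 are neighbours that are read in opposite directions from a shared start region. In RefSeq (GRCm38.p6) Col4a2 starts on the plus strand at base 11312805 of chromosome 8 and Col4a1 on the minus strand at base 11312826. By these starts the transcripts overlap at their beginnings, in a run of 22 bases at chr8:11312805-11312826 that belongs to both. It is shown on the plus strand with GGGCGG in capitals because both transcripts begin in it and both fell. Any part of this run in the differences was not tested.
Col4a1 and Col4a2: agtgcgcGGGCGGcgtctccaa

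Of the 4 rarer type IV chains, which replace the common ones in kidney and other special basement membranes, only Col4a6 passed. Col4a6 had 7.40, 7.32 and 7.38 on primed arrays, against 7.26, 7.24 and 7.14 on naive arrays. It was higher on every primed array by 0.15 (SE 0.06, limma adjusted p = 0.0416), with all values under the 99th percentile of receptor genes. This call ended with array medians centred (0.083, adjusted p = 0.23) and without naive replicate 3 (0.12, adjusted p = 0.182) or primed replicate 1 or 3 (adjusted p = 0.101 and 0.104). It also ended without naive replicate 2 or primed replicate 2 (adjusted p = 0.0573 and 0.0504). Col4a5, its head-to-head neighbour, differed by 0.100 (95% interval -0.010 to 0.21), Col4a3 by -0.026 and Col4a4 by 0.042 (-0.029 with array medians centred), none past the threshold.

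The 27 other collagens held 5 genes lower in primed cells (18.5%, against 22.7% of all genes) and 1 higher (3.7%, against 21.8%). The remaining 21 did not pass, and the median difference of the class was -0.051. Col6a1, a chain of the beaded microfilaments around cells, had 7.84, 7.93 and 7.91 on primed arrays, against 8.27, 8.32 and 8.13 on naive arrays. Its groups did not overlap and differed by -0.35 (SE 0.06, limma adjusted p = 0.000655). Col7a1, the anchoring fibril collagen that ties skin epithelium to the dermis, had 8.39, 8.46 and 8.58 on primed arrays, against 8.79, 8.87 and 8.80 on naive arrays. Every primed array was lower, by -0.34 in the mean (SE 0.06, limma adjusted p = 0.000584).

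Col18a1 encodes a basement membrane collagen whose end is cut off as endostatin, an inhibitor of vessel growth. It had 10.09, 9.93 and 10.12 on primed arrays, against 10.23, 10.30 and 10.33 on naive arrays. These values were well above the receptor background in both states, and the primed arrays were lower by -0.24 (SE 0.06, limma adjusted p = 0.00823). Col12a1, which decorates type I fibrils, had 6.74, 6.71 and 6.75 on primed arrays, against 7.08, 7.06 and 7.09 on naive arrays. It was lower in primed cells (limma adjusted p = 0.000133), with primed values under the 95th percentile of receptor genes and naive values just above it. All values of Col12a1 lay under the 99th percentile in both groups. The measured means differed by -0.34 (SE 0.05), and against the 95th percentile naive cells were at least 1.06-fold higher.

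Col8a1, a short chain collagen of vessel walls and the cornea, lay at the edge of the threshold. It had 7.82, 7.76 and 7.93 on primed arrays, against 8.08, 7.98 and 7.94 on naive arrays, a difference of -0.16 (SE 0.06, limma adjusted p = 0.0496). The groups were barely apart, and the call ended without naive replicate 1 (adjusted p = 0.162), naive replicate 2 (0.0845), primed replicate 1 (0.103) or primed replicate 2 (0.182). Col9a3, a fibril-associated cartilage collagen, lay just outside the threshold. It had 8.77, 8.81 and 8.92 on primed arrays, against 8.69, 8.66 and 8.70 on naive arrays, a difference of 0.15 (limma adjusted p = 0.0504). It passed without primed replicate 1 (0.18, adjusted p = 0.0295), and under 4 other alternatives.

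Col26a1, a secreted collagen described in mouse testis and ovary, was the other gene with a higher level in primed cells. It had 8.77, 8.78 and 8.89 on primed arrays, against 8.64, 8.63 and 8.58 on naive arrays. No arrays overlapped, and the difference was 0.20 (SE 0.05, limma adjusted p = 0.0103). The call ended with array medians centred (0.13, adjusted p = 0.0772), after quantile normalization (0.14, adjusted p = 0.0689) and without primed replicate 3 (0.16, adjusted p = 0.055).

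Among the rest, the 4 transmembrane collagens Col13a1, Col17a1, Col23a1 and Col25a1 gave 0 calls in limma, against 44.5% of all genes. Their differences lay between -0.055 and 0.12. At an unadjusted p under 0.05 they gave 0 as well, against 4847 higher and 5045 lower of all 19938 genes. The fibril-associated group gave 1 call in 9 genes (11.1%, against 44.5% of all genes), that of Col12a1. Over the 32 collagen genes that did not pass, differences lay between -0.10 and 0.15. Their widest 95% interval bounds were -0.27 for Col6a5 and 0.27 for Col9a3. Col6a5 has another, dimmer probe set that was lower in primed cells, with 6.67, 6.50 and 6.73 on primed arrays against 6.94, 6.92 and 7.09 on naive arrays (-0.34, limma adjusted p = 0.0023 over all named probe sets). That probe set lay under the 95th percentile of receptor genes on all primed arrays and on 2 of 3 naive arrays, so its difference is near background. The brighter probe set differed by -0.10 and did not pass, and the mean of both gave -0.22 (adjusted p = 0.0081). Both probe sets of Col6a6 missed the threshold (0.050 and 0.11).

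**Figure D3:**
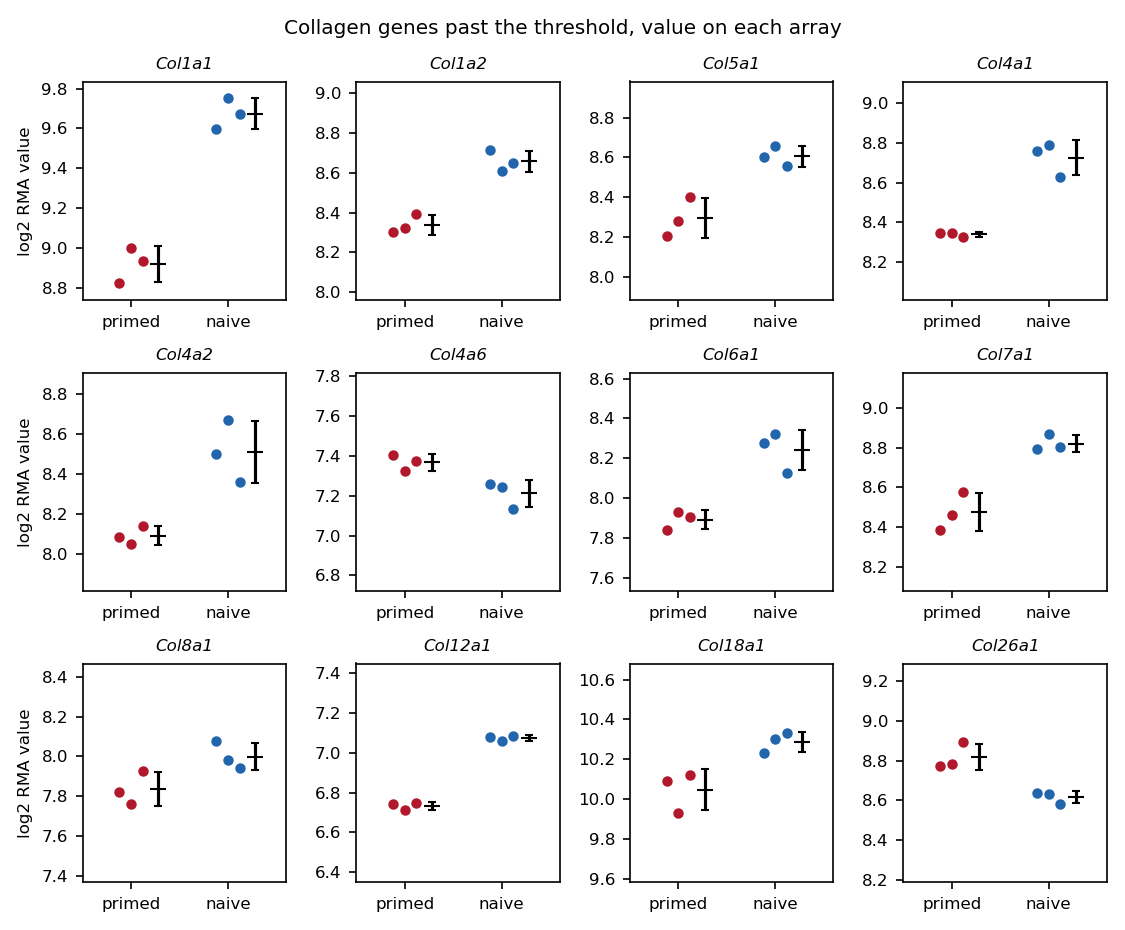
Log2 RMA value on each array for the 12 collagen genes past the threshold, primed left and naive right, with the mean and SD of 3 arrays as black bars. Each panel spans 1.1 log2 units. Only Col4a6 and Col26a1 are higher on primed arrays, and no panel has overlapping groups.

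Probe sets of chains that assemble into the same molecule did not always move by the same amount. For type I collagen the within-array difference Col1a1 minus Col1a2 was 0.52, 0.68 and 0.54 on primed arrays, against 0.88, 1.14 and 1.02 on naive arrays. The probe set values of these chains thus changed unequally. For type IV the difference Col4a1 minus Col4a2 was 0.26, 0.30 and 0.19 on primed arrays, against 0.26, 0.12 and 0.26 on naive arrays, and the groups overlapped. For type VI the difference Col6a1 minus Col6a2 was -0.55, -0.60 and -0.57 on primed arrays, against -0.30, -0.24 and -0.32 on naive arrays. Here Col6a1 fell while its neighbour and partner Col6a2 (-0.060) and the third chain Col6a3 (-0.085) did not pass. For type V the difference Col5a1 minus Col5a2 was 0.95, 1.00 and 1.14 on primed arrays, against 1.30, 1.26 and 1.21 on naive arrays. Probe sets have no common scale, so these differences bear only on change of probe set values between the groups, and they were not tested. RMA compresses differences of dim genes, so unequal change of probe sets need not be unequal change of transcripts.

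Partner chains of types VIII, IX and XI are given side by side. In type VIII, Col8a2 differed by -0.011 beside the -0.16 of Col8a1. In type IX, Col9a1 differed by -0.066, Col9a2 by 0.054 and Col9a3 by 0.15, none past the threshold. In type XI, which joins the cartilage chains Col11a1, Col11a2 and Col2a1, the differences were 0.020, -0.070 and 0.0030. The signs of Col9a2, Col11a1 and Col2a1 turned with array medians centred. Besides Col4a1 with Col4a2, no neighbouring pair of collagen genes had both members past the threshold among the 8 pairs found in the RefSeq gene order. Taken singly, 27.3% of collagen genes and 44.5% of all genes passed. The share over all neighbouring pairs was not counted, so the pair count is only a description.

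Genes that modify and fold collagen chains went both ways. Of 20 measured, 6 were higher (30%, against 21.8% of all genes) and 5 lower in primed cells (25%, against 22.7% of all genes), and 9 did not pass. Tmem38b, an ion channel of the endoplasmic reticulum whose human gene is mutated in brittle bone disease, was at 9.45 ± 0.08 in primed and 8.39 ± 0.13 in naive cells (SD, n = 3), a difference of 1.06 (limma adjusted p = 3.28e-07). P3h2, a prolyl hydroxylase that acts on type IV collagen, was at 8.00 ± 0.18 in primed and 7.37 ± 0.07 in naive cells, where it lay under the 99th percentile of receptor genes (0.63). Creb3l1, a transcription factor that drives Col1a1 in mouse bone cells, was at 9.01 ± 0.07 in primed and 9.50 ± 0.04 in naive cells (-0.49, limma adjusted p = 2.04e-05). Mia3, which helps load bulky procollagen for export, differed by -0.36. Serpinh1, the collagen chaperone HSP47, did not pass as deposited (-0.096), and passed with array medians centred (-0.17, adjusted p = 0.0205).

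Procollagen cleavage and cross-linking genes included Pcolce, Loxl4 and Tll1, which differed by more than any collagen gene. Of 13 measured, 4 were higher (30.8%, against 21.8% of all genes) and 5 lower in primed cells (38.5%, against 22.7% of all genes), and 4 did not pass. Among those counted as higher, Lox lay under the 95th percentile of receptor genes in both groups, and array values of Loxl3 overlapped between the groups. Tll1, a protease of the Bmp1 family, was at 9.34 ± 0.07 in primed cells and in naive cells at 6.58 ± 0.19 (SD, n = 3), under the 95th percentile of receptor genes. Against that percentile it was at least 5.06-fold higher in primed cells (limma adjusted p = 8.14e-10), and against the 99th percentile at least 2.87-fold. Loxl4, a cross-linking enzyme of the lysyl oxidase family, was at 7.30 ± 0.04 in primed and 8.92 ± 0.15 in naive cells (-1.62, limma adjusted p = 1.42e-08). Its primed values lay under the 99th percentile of receptor genes, and counted against that percentile naive cells were at least 2.14-fold higher. Pcolce, which enhances removal of the procollagen end by Bmp1, was at 9.63 ± 0.12 in primed and 10.91 ± 0.05 in naive cells (-1.27), and its relative Pcolce2 differed by -0.57. Bmp1 itself, the main procollagen C-proteinase, was lower in primed cells by -0.27.

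Of 9 collagen receptors measured, 3 were lower in primed cells (33.3%, against 22.7% of all genes) and 0 were higher (against 21.8% of all genes). The other 6 were not past the threshold in limma. At an unadjusted p under 0.05, 0 of the 9 were higher, against 4847 of all 19938 genes. Itga1, the integrin subunit that binds type IV and type I collagen, was at 7.62 ± 0.07 in primed and 8.95 ± 0.13 in naive cells (SD, n = 3), a difference of -1.33 (limma adjusted p = 5.17e-08). Its primed values also lay under the 99th percentile of receptor genes, against which naive cells were at least 2.18-fold higher. Ddr1, a receptor kinase for collagen, differed by -0.24 and Itga10 by -0.21. Itgb1, the shared beta subunit, did not pass as deposited (-0.091), and passed with array medians centred (-0.16, adjusted p = 0.024). Among genes of collagen breakdown and its inhibitors, 6 of 12 were lower in primed cells (50%, against 22.7% of all genes), 2 were higher (16.7%, against 21.8% of all genes) and 4 did not pass. The inhibitors Timp3 (-0.95) and Timp2 (-0.87) and the type IV collagenase Mmp9 (-0.94) were lower, and the lysosomal protease Ctsl was higher (0.67). Primed values of Timp2 and Mmp9 lay under the 99th percentile of receptor genes. The 4 genes that did not pass, Mmp8, Mmp13, Ctsk and Fap, lay within the receptor background in both groups.

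**Figure D4:**
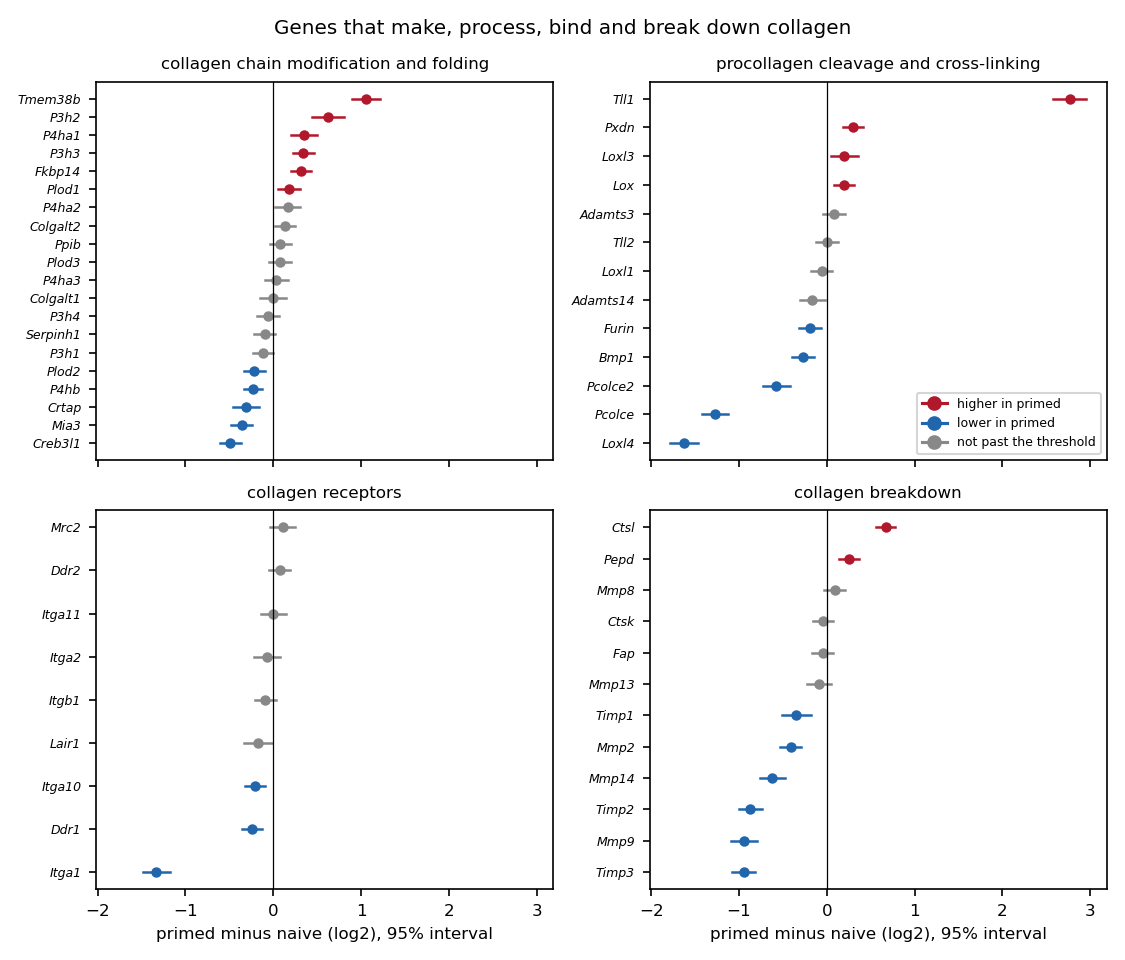
Differences (primed minus naive, log2 RMA value) with 95% intervals for genes that modify, process, bind and break down collagen, 1 panel for each list. Red points are higher and blue points lower in primed cells at an adjusted p under 0.05, and grey points did not pass. Points are measured differences, also where a group lies in background, as naive Tll1 does. Tll1 lies far right and Loxl4, Itga1 and Pcolce far left.

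Markers of other cells that make collagen were read beside these results. Of 19 fibroblast markers other than collagens, 8 were lower in primed cells (42.1%, against 22.7% of all genes), 3 were higher (15.8%, against 21.8%) and 8 did not pass. Their mean level over the list was 8.18 to 8.19 on primed arrays and 8.20 to 8.25 on naive arrays. Those lower in primed cells included Acta2 (-1.23) and Tagln (-1.09), genes of contractile fibres, and Twist1 (-0.49), a mesenchymal transcription factor. Primed values of Twist1 lay under the 99th percentile of receptor genes. Dcn, a proteoglycan that coats type I fibrils, was higher (2.89), with naive values under the 99th percentile of receptor genes. Pdgfrb (0.37), with naive values under the same percentile, and Fbln2 (0.19) were the others counted as higher. Pdgfra, Thy1, Fbln1, Fn1 and Vim were among the 8 that did not pass. The fibroblast markers Lum, Fap, Prrx1, Postn, S100a4 and Ccdc80 lay within the receptor background in both groups, and 3 of them (S100a4, Postn and Ccdc80) are among the 8 counted as lower. Of 14 markers of primitive and parietal endoderm, the extraembryonic layers that secrete type IV collagen, Dab2 (-0.63) and Sparc (-0.36) were lower in primed cells (14.3%, against 22.7% of all genes) and 12 did not pass. Their mean level was 8.28 to 8.30 on primed and 8.35 to 8.37 on naive arrays, and Sox17, Afp and Ttr lay in background in both groups. Of 8 cartilage markers, 3 were higher (37.5%, against 21.8% of all genes) and 2 lower in primed cells (25%, against 22.7%), over a mean level of 7.31 to 7.35 on primed and 7.21 to 7.26 on naive arrays. Among them were Matn3 (0.80) and Comp (-0.37), each with its lower group under the 99th percentile of receptor genes. Matn1 (0.46) and Acan (-0.21) had theirs under the 95th percentile. The part of these cell types in the collagen differences was not tested.

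The labelled cell type was checked against 9 pluripotency markers. Pou5f1, Nanog, Sox2, Sall4, Lin28a, Utf1 and Tdgf1 were above the 99th percentile of receptor genes on all arrays, Dppa5a only in naive cells, and Zfp42 lay in background in both groups. Of the 9, 6 were lower in primed cells (66.7%, against 22.7% of all genes), among them Pou5f1 (-1.06), Tdgf1 (-0.80) and Nanog (-0.61). Primed Dppa5a lay under the 95th percentile of receptor genes, against which naive cells were at least 2.27-fold higher, or 1.27-fold against the 99th percentile. Arrays of a group correlated across genes at r of 0.998 to 0.999 and arrays of different groups at 0.980, and no array stood apart.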

How the data were processed

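The deposited log2 values per probe set were made by the authors with RMA in Partek 6.6, per the submitters' processing notes. The RMA options and the genome build were not given in the sources used here. RMA compresses differences of dim genes. Of 35556 probe sets, 21789 had 1 gene symbol in GEO's platform annotation, 1621 had several and 12146 are not named here. Symbols were updated by gene ID to RefSeq GRCm38.p6 (21698 matched), and all 44 collagen genes matched. The brightest probe set was kept for each gene.

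The difference primed minus naive was fitted over 19938 genes by lmFit and eBayes of limma 3.58.1 (R 4.3.3), two-sided and without covariates, with Benjamini-Hochberg adjustment and a threshold of 0.05. The same fit was tested on simulated data for primed against naive, drawn for 19938 genes with their measured spread. Only 50 genes were planted at each size, whereas 44.5% of all genes were called in the measured data. With so few changed genes the adjustment is stricter, so the shares found do not carry over to the measured data. The fit found 36% of the planted differences of size 0.25 and 80% at size 0.5. At sizes 1 and 2 it found 100%, and it called 4 genes that were left alone. Members, lists and classes were chosen with earlier results of these data known. Array values are given for each collagen gene past the threshold and above background in a group, and for Col1a1, Col1a2, Col3a1, Col4a1, Col4a2, Col5a2 and Col18a1 whatever their call. From other lists the 4 genes with the largest difference past the threshold are named, and further names were chosen after their values were seen. Fkbp10, Adamts2, Loxl2, Gp6, Fbn1 and Runx2 were listed but not analysed here. Alternatives were other scalings, filters on dim genes, averaging of probe sets, array weights, a variance trend with intensity, a replicate block, stricter thresholds and leaving out each array.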

Additional observations from a re-analysis of the deposited data

How the results depend on the processing

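No called difference of a collagen gene or a gene of the other lists changed sign under the alternatives run. Among collagen genes that did not pass, 13 changed sign under at least 1 refit, none past the threshold with the other sign. With array medians centred Col2a1 was at -0.068, Col11a1 at -0.051, Col4a4 at -0.029, Col6a6 at -0.021 and Col9a2 at -0.017. Under the same setting Col22a1 was at -0.070, Col24a1 at -0.031 and Col14a1 at -0.0185. After quantile normalization Col2a1 was at -0.059, Col22a1 at -0.052, Col11a1 at -0.033, Col6a6 at -0.0175 and Col9a2 at -0.0083. Col1a1 kept its call in all 16 alternatives. Col1a2, Col5a1, Col4a1, Col4a2, Col6a1, Col7a1 and Col18a1 lost theirs only where a size of at least 0.5 was required. Col12a1 kept its call in 14 of its 15 alternatives and lost it only where that size was required. It is not among the genes above the 40th percentile. With that size required, collagen genes lower in primed cells numbered 1 and higher 0, with 1 fibrillar, 0 basement membrane and 0 other collagens lower and 0 basement membrane and 0 other collagens higher. The same setting left 2 higher and 0 lower chain modification genes, 1 and 3 cleavage and cross-linking genes, 1 higher breakdown gene, 1 lower receptor, and 1 higher and 2 lower fibroblast markers. Over all 19938 genes it left 1480 higher and 1285 lower. At an adjusted p under 0.01, 0 collagen genes were higher (0 basement membrane and 0 other), with 2 higher cleavage genes. Over all genes 3482 were higher and 3540 lower at that threshold. With array medians centred, 0 collagen genes were higher (0 basement membrane and 0 other) and 5 fibrillar collagens were lower, with 2 higher cleavage genes and 5 lower receptors. Centring gave 3439 higher and 6325 lower over all 19938 genes. Quantile normalization left 1 higher collagen gene and 0 higher other collagens, with 4583 higher and 4571 lower over all genes. Array weights gave 4 higher collagen genes, 3 of them other collagens, with 4576 higher and 4852 lower over all genes. The intensity trend gave 1 higher collagen gene and 0 in the basement membrane class, with 4419 higher and 4687 lower over all genes. Above the 40th percentile 0 basement membrane and 2 other collagens were higher, with 3 lower fibroblast markers. Of all 11963 genes there, 3797 were higher and 4070 lower. Among genes above background in a group there were 2 higher other collagens and 5 lower fibroblast markers. Of all 14573 genes of that kind, 4229 were higher and 4413 lower. The mean over probe sets gave 2 higher other collagens, with 4343 higher and 4528 lower over all genes. Fewer genes enter the filters on dim genes. Centring shifts every difference by the same constant, which turned the signs given above for that setting. Otherwise the cause was not tested. With the 99th percentile, 15 collagen genes lay in background in both groups, against 1 with the 95th. Over all genes these counts were 7847 and 5365.

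Without each array in turn, collagen genes lower in primed cells numbered 9 to 10 and higher 0 to 3, by class 3 to 3 and 0 to 0 (fibrillar), 2 to 2 and 0 to 1 (basement membrane), 4 to 5 and 0 to 2 (other). Higher and lower counts were 5 to 6 and 5 to 5 for chain modification, 3 to 4 and 4 to 6 for cleavage and cross-linking, 0 to 1 and 3 to 4 for receptors, 2 to 2 and 6 to 6 for breakdown genes, and 3 to 4 and 6 to 8 for fibroblast markers. Over all genes the same refits gave 3926 to 4169 higher and 4007 to 4455 lower. Among differences that changed sign, ranges were -0.025 to 0.019 for Col2a1, -0.032 to 0.051 for Col11a1 and -0.0071 to 0.11 for Col4a4. They were -0.030 to 0.11 for Col6a6, -0.059 to 0.017 for Col8a2 and -0.0079 to 0.16 for Col9a2. Differences of Col6a4, Col14a1, Col15a1, Col16a1, Col19a1 and Col22a1 also changed sign when an array was left out. Acan lost its call without naive replicate 1 or 3 or primed replicate 1 or 3, with adjusted p values up to 0.115.

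The titles number the replicates but do not say whether same-numbered arrays were paired. Deviations of same-numbered arrays correlated at -0.047, 0.060 and 0.0070, so no strong shared effect was seen. With 3 arrays a group these correlations cannot decide whether the cultures were paired. With the replicate block 1 collagen gene was higher (0 basement membrane) and 9 were lower, with Col4a6 (adjusted p = 0.0631) and Col8a1 (0.0749) no longer past the threshold. Over all genes the block gave 4172 higher and 4344 lower. Signal over background limits the 15 genes under the 99th percentile, and 3 arrays a group limit all of them.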
